A study of Fragaria x ananassa with 3 samples.

Results

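The genes described here are those whose transcripts had degradome tags at a site pairing with a new candidate miRNA of strawberry fruit. They are the distinct target genes listed for a candidate (a name that starts with PC), without the rows of PC-5p-1004_3092 and PC-5p-5963_595 and without genes that are also listed for a known miRNA. The rule gave 46 genes of the 103 listed, in 49 of 152 miRNA and gene pairs, and the 46 genes were paired with 33 of the 1225 candidates. It left out 3 candidate genes shared with a known miRNA and 1 gene listed for PC-5p-1004_3092. Fruit of Fragaria x ananassa cultivar Zhangji was stored at 20 °C. Small RNAs were sequenced in 1 library of fruit stored for 0 h and 1 library of fruit stored for 24 h, and the degradome was sequenced in 1 library of a mixture of both. No group has a replicate. Samples could therefore not be compared by a test, and a difference between the storage times cannot be told apart from a difference between the libraries. The table of miRNAs holds 3006293 raw reads for the 0 h library and 2998588 for the 24 h library. Intervals are exact at the 95% level and cover counting error only, not the variation between fruits.

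Plant miRNAs are short RNAs cut from the stem of a hairpin precursor. Loaded into an Argonaute protein, a miRNA pairs with a transcript along nearly its whole length, and the transcript is cut opposite the middle of the miRNA. The downstream piece keeps a free 5′ phosphate, and degradome sequencing collects such ends, so that tags which begin at one position mark a cut there. Tags also come from the ordinary decay of RNA, and for that reason a site is read against all other tags of the same transcript. In category 0, the site has more than 1 raw read and is the only maximum of its transcript. In category 2 it is below the maximum and above the median, in category 3 it is at or below the median, and in category 4 it has 1 raw read.

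The sequences of the candidates paired with category 0 genes, and of those paired with genes that had at least 5 degradome reads, are printed first, because these are the sites that stand out on their transcript or have the most tags. The capitals mark the seed, bases 2 to 8 from the 5′ end, and T stands for U.
PC-5p-931_3343: tTACCCTTgcaatatccgttg
PC-3p-1812_1740: tCTTTCCTagtcctgccattcc
PC-3p-24_126989: tGAAGTGGgatttggcgaatt
PC-5p-914454_4: gCGGACACcaaaggcatcaccgac
PC-5p-26900_134: tTTCTCCTttccaatggtctt
PC-3p-112142_32: tCAATATGctacaactatgat
PC-5p-2843_1134: cGAAGCTCttcagggaagtta
PC-5p-176409_20: tAATTTCGtcggccaagat
None of these 8 candidates shares its seed with another name in the table of miRNAs. The seed was compared at fixed bases, so names with a shifted or slightly changed sequence are not counted. PC-3p-24_126989 and PC-5p-176409_20 each share a run of at least 13 bases with 2 other names on the same strand. PC-3p-24_126989 also differs from its listed hairpin at base 5, within the seed. The hairpin there matches, base for base, another candidate that the paper lists, PC-3p-28_119226. Among all 33 candidates, 1 pair had the same seed, PC-3p-189804_19 and PC-3p-238320_15.

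Category 0 held 5 of the 46 genes (10.9%, 3.62 to 23.6%), beside 29.1% of all 103 listed genes. Of the genes of known miRNAs, 25 of 56 were in category 0 (44.6%, 31.3 to 58.5%). Category 2 held 13 genes of the candidates (28.3%), category 3 held 1, category 4 held 27 (58.7%, 43.2 to 73.0%) and category 1 held none. Of all 103 listed genes, 24.3% were in category 2 and 44.7% in category 4. Among the genes of known miRNAs, category 4 held 19 of 56 (33.9%, 21.8 to 47.8%). The caller's P, which is not adjusted, was under 0.05 for 5 candidate genes (10.9%), beside 30.1% of all listed genes, and these were the 5 category 0 genes. The category and the P are outputs of the same caller for the same site, so the P is not a separate result. The shares are a description of the list, with no test, since several genes share tags and a gene counts once by its best pair.

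**Figure D1:**
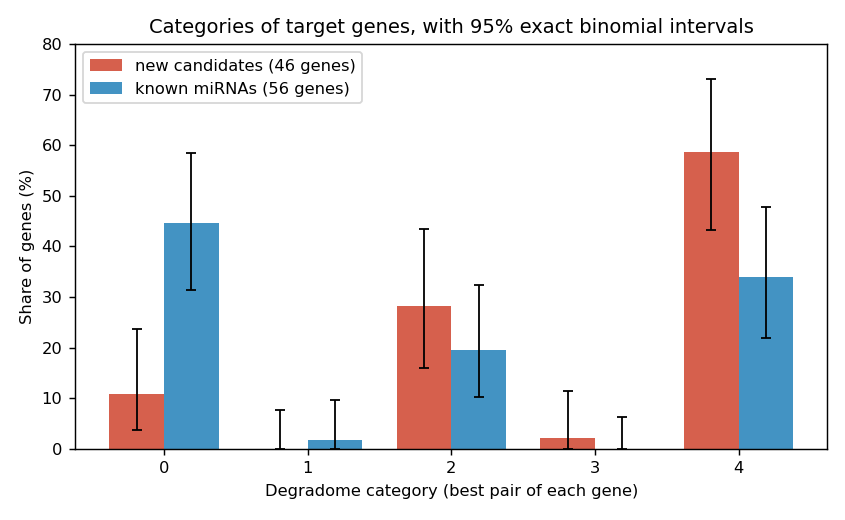
Share of target genes (%) in each degradome category for the 46 genes of new candidates and the 56 genes of known miRNAs, with bars from 0 and exact 95% binomial intervals as error bars. Category 0 holds 10.9% of the candidate genes and 44.6% of the known miRNA genes, and category 4 holds 58.7% and 33.9%.

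The lowest alignment scores of a category 0 pair were those of gene34672-v1.0-hybrid and gene34668-v1.0-hybrid with PC-5p-931_3343. The alignment score is a penalty in which a mismatch or bulge costs 1 and a G:U pair costs 0.5, with the cost doubled between bases 2 and 13, so a low score is a close match. Both genes had a score of 1.5, the same P of 0.00639 and 1.5 reads at the site, at base 1130 of gene34672-v1.0-hybrid and base 1076 of gene34668-v1.0-hybrid. The reads sum to 3 over the pair, as they would if the same tags were divided between 2 places. Neither gene has an annotation. The candidate was counted in 648 raw reads before storage and 1507 after 24 h, or 594 and 1275 normalized reads. The 24 h library was higher by 2.15-fold (1.96 to 2.36), and this was the largest read number among the candidates past 2-fold.

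The other category 0 genes were matched less closely, each with a score of 4. The gene gene14951-v1.0-hybrid had 4 reads (1.09 to 10.2) at base 469 with PC-3p-1812_1740 (binomial P = 0.0112). The gene gene21791-v1.0-hybrid had 3 reads (0.619 to 8.77) at base 415 with PC-3p-24_126989 (binomial P = 0.0112). Both are without annotation. The last was gene07532-v1.0-hybrid, annotated as photosynthetic electron transfer A, the name given in Arabidopsis to the chloroplast gene for cytochrome f of the electron transport chain. It had 3 reads at base 342 (binomial P = 0.0136). Its candidate PC-5p-914454_4, 24 nt long, was counted 6 times in the 0 h library and 5 times in the 24 h library, too few for a fold. The candidate of gene21791-v1.0-hybrid stood at the other end, with 41460 and 45238 raw reads, and it alone held 89.5% of the raw reads of the 33 candidates.

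The highest read numbers were at sites of category 2. The gene gene10392-v1.0-hybrid, described only as an unknown protein, had the highest number, 7 reads (2.81 to 14.4) at base 22 with PC-5p-26900_134 (score 4, binomial P = 0.352). The genes gene14343-v1.0-hybrid and gene06286-v1.0-hybrid, both without annotation, had 6 reads each (2.20 to 13.1). They were paired with PC-5p-2843_1134 (score 3, binomial P = 0.170) and with PC-3p-112142_32 (score 4, binomial P = 0.251). The intervals of these genes overlap those of the category 0 genes that had whole reads, so the order of the reads is not resolved at this depth. The gene gene31311-v1.0-hybrid, also without annotation, had 3 reads with PC-5p-99177_36 (score 4, binomial P = 0.304). The remaining gene with at least 5 reads is the PP2C gene, described with the annotated genes.

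**Figure D2:**
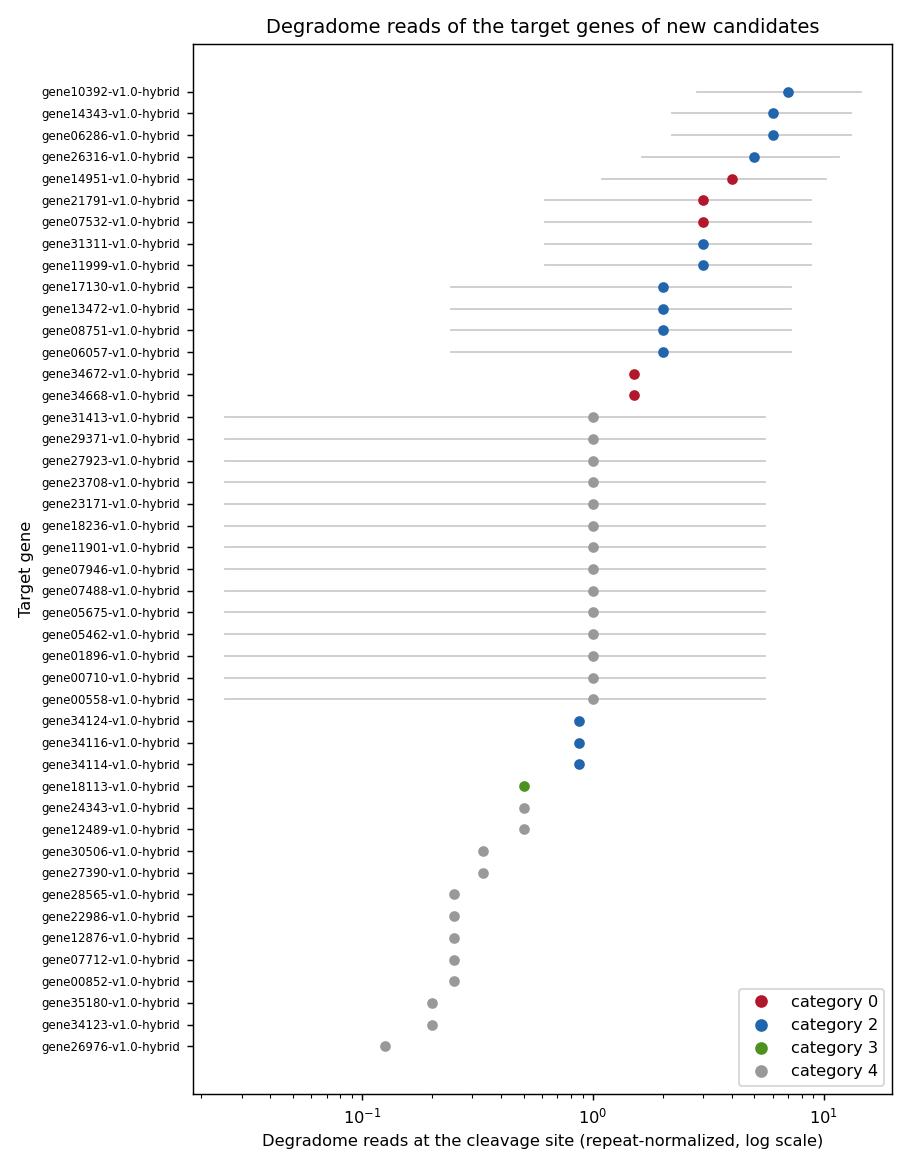
Degradome reads at the cleavage site (repeat-normalized, log axis) of 45 of the 46 genes, coloured by category, with exact 95% Poisson intervals as grey lines where the reads are a whole number. Whole values were taken as counts. The values run from 0.125 to 7, and 15 genes have more than 1 read (32.6%, beside 51.5% of all 103 listed genes).

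Over the 46 genes the reads had a median of 1, between 0.125 and 7. There were 15 genes with more than 1 read, 14 with exactly 1 and 17 with less than 1. Genes of known miRNAs had a median of 2 reads, between 1 and 110, and none was below 1. Values under 1 stand for tags with several places in the gene set, so they mark candidate genes whose tag could not be assigned to 1 transcript. Alignment scores had a median of 4 in the candidate genes, where 26 of 46 (56.5%) sat at the highest score listed, and a median of 3.5 in the genes of known miRNAs, where 18 of 56 (32.1%) did. A score of 2 or less was found for 3 candidate genes, which besides the pair of PC-5p-931_3343 were gene28565-v1.0-hybrid with PC-3p-59987_60, a category 4 gene with 0.25 reads. The sites lay between base 14 and base 4940 of the transcripts, with a median of 605.5. In all 49 pairs the listed site was the base opposite base 10 of the candidate, counted from the end of the alignment range, which was the case in 85 of 96 pairs of known miRNAs. The site and the range are both outputs of the caller, and gaps in the alignment were not allowed for. These counts describe the listing and do not measure how exact a cut is. The alignment range was as wide as the candidate in 35 pairs, narrower in 9 and wider in 5. For gene00710-v1.0-hybrid the range was stored as a date and was read as month and day.

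An annotation was given for 17 of the 46 genes (37.0%, 23.2 to 52.5%) and for 35 of 56 genes of known miRNAs (62.5%, 48.5 to 75.1%). In cell wall and carbohydrate there were 3 genes, 1 of them in categories 0 to 2. The arabinose kinase gene08751-v1.0-hybrid, of an enzyme that phosphorylates the arabinose set free from wall polymers, had 2 reads (0.242 to 7.22) at base 1390 with PC-5p-2843_1134 (score 3.5, binomial P = 0.0794). This was the lowest P outside category 0. The gene gene00558-v1.0-hybrid, of the pectin lyase-like family that holds pectin-degrading enzymes, had 1 read with PC-3p-87823_40 (score 4, binomial P = 0.328). The gene gene07946-v1.0-hybrid, fructose-2,6-bisphosphatase, which removes a regulator of glycolysis and sucrose synthesis, had 1 read with PC-3p-1366_2253 (score 4, binomial P = 0.450).

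Hormone and stress signalling held 4 genes, 2 of them in category 2, and 3 are described here. The gene gene26316-v1.0-hybrid is annotated as highly ABA-induced PP2C gene 2, a protein phosphatase of the clade that restrains abscisic acid signalling in Arabidopsis. It had 5 reads (1.62 to 11.7) at base 1188 with the 19 nt candidate PC-5p-176409_20 (score 4, binomial P = 0.440). The gene gene17130-v1.0-hybrid, ankyrin repeat-containing protein 2, had 2 reads with PC-5p-39307_92 (score 4, binomial P = 0.195). The gene gene18113-v1.0-hybrid, of the RING/U-box family to which many ubiquitin ligases belong, was the single category 3 gene, with 0.5 reads and PC-5p-150653_24 (score 4, binomial P = 0.171).

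Membrane traffic and transport held 4 genes, all in category 4. They were gene23708-v1.0-hybrid (Target of Myb protein 1), gene05675-v1.0-hybrid (Coatomer, beta subunit), gene07488-v1.0-hybrid (ATPase E1-E2 type) and gene27923-v1.0-hybrid (ELMO/CED-12 family), with 1 read each. Target of Myb protein 1 is named after its discovery in animals and sorts ubiquitin-tagged cargo at endosomes, and it is not a Myb factor. The coatomer beta subunit is part of the coat of Golgi vesicles. The ATPase had the closest match of the annotated genes, a score of 2.5 with PC-5p-205640_18 (binomial P = 0.247). The enzymes of metabolism were 3 genes, 2 of them in category 2. The gene gene11999-v1.0-hybrid, an N-acyltransferase of the NAT superfamily, had 3 reads with PC-3p-269545_14 (score 4, binomial P = 0.549). The gene gene06057-v1.0-hybrid, an alpha/beta-hydrolase, had 2 reads with PC-5p-67794_53 (score 3.5, binomial P = 0.152). The gene gene05462-v1.0-hybrid, alanine aminotransferase 2, which links pyruvate and alanine, had 1 read with PC-5p-345020_11 (score 4, binomial P = 0.328).

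The only gene in the list of nucleus, DNA and RNA was gene29371-v1.0-hybrid, topoisomerase II, which passes one DNA duplex through another. It had 1 read with PC-3p-269545_14 (score 4, binomial P = 0.888). The same list held 13 of the 56 genes of known miRNAs (23.2%, 13 to 36.4%), against 1 of 46 here (2.17%, 0.0550 to 11.5%). Its words include NAC, AP2 and growth-regulating and were chosen with earlier results known. Genes without annotation cannot enter it, and these were 63.0% of the candidate genes and 37.5% of the genes of known miRNAs. Among annotated genes alone, the list held 13 of 35 genes of known miRNAs and 1 of 17 here. How far the choice of words shapes the contrast was not tested. The remaining annotated gene, gene30506-v1.0-hybrid of the tetratricopeptide repeat-like family, had 0.333 reads with PC-3p-88384_40 (score 4, binomial P = 1.000). Of the 29 genes without annotation, 12 were in categories 0 to 2 (41.4%, 23.5 to 61.1%), and they made up 12 of the 18 genes in those categories. This is near the share of all 46 genes in those categories (39.1%), and 54.4% of all 103 listed genes were in them. Genes without annotation made up 63.0% of the 46.

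One candidate, PC-3p-1812_1740, was paired with 7 of the 46 genes, all without annotation, and their reads sum to 9. Besides gene14951-v1.0-hybrid, gene13472-v1.0-hybrid had 2 reads (score 3.5, binomial P = 0.220). The genes gene34124-v1.0-hybrid, gene34114-v1.0-hybrid and gene34116-v1.0-hybrid had the same alignment range, bases 572 to 592, the same site at base 583, a score of 3, a P of 0.567 and 0.867 reads each. The genes gene35180-v1.0-hybrid and gene34123-v1.0-hybrid had 0.2 reads each (score 4, binomial P = 0.833), the value of 1 read over 5 places. The reads of these 5 genes sum to 3, a whole number, so they may be near-identical copies that share tags and are uncertain as separate targets. The candidate was counted in 664 raw reads before storage and 551 after 24 h (608 and 466 normalized reads), a fold of 0.766 (0.683 to 0.859). It was also the candidate closest to a known miRNA in the table, with 4 mismatches over 22 bases to mtr-MIR1510a-p3_1ss5AT. The 2 sequences are shown with the differing bases in capitals.
PC-3p-1812_1740: tctttccTaGtcctGccatTcc
mtr-MIR1510a-p3_1ss5AT: tctttccCaTtcctCccatCcc
The other 32 candidates had at least 7 mismatches to every known name over 18 or more bases.

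Shared tags also stand behind other sites. The 4 genes of PC-3p-59987_60 had 0.25 reads each, which sum to 1. Of them gene12876-v1.0-hybrid and gene00852-v1.0-hybrid had a score of 3, gene28565-v1.0-hybrid 2 and gene22986-v1.0-hybrid 4. The gene gene26976-v1.0-hybrid, without annotation, had 0.125 reads with PC-3p-39141_92 (score 4), the value of 1 read over 8 places. Reads that are not whole were found in 20 of the 49 pairs. The candidates with 2 member genes each were 7 in number, 24 had 1, and 1 had 4.

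A pair of candidates was listed for each of 3 genes, and these candidates are shown because some of them overlap in sequence. The gene gene23708-v1.0-hybrid was listed at base 1405 for PC-3p-140510_25 (score 4, binomial P = 0.949) and at base 1409 for PC-3p-29513_122 (score 3, binomial P = 0.722), with 1 read at each. The candidates share a run of 20 bases, in capitals, which starts at base 1 of the first and base 5 of the second.
PC-3p-140510_25: ACGGTGGAGATGGACGGATGc
PC-3p-29513_122: atggACGGTGGAGATGGACGGATG
The offset of 4 bases is that between the sites. The gene gene24343-v1.0-hybrid was listed at base 255 for both PC-3p-238320_15 (score 4) and PC-3p-295037_12 (score 3.5), with 0.5 reads (binomial P = 1.000 for both). The gene gene12489-v1.0-hybrid was listed at base 104 for PC-3p-189804_19 with 0.5 reads and at base 101 for PC-3p-771044_5 with 1 read, both with a score of 4.

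Sequences of several other candidates overlap as well. Of the 33 candidates, 13 share a run of at least 13 bases with another listed name on the same strand, and 3 lie whole inside a longer name. The same counts were not made over all candidates, so they cannot be read as particular to these 33. A run of 14 bases is common to the candidates of gene24343-v1.0-hybrid and of gene26976-v1.0-hybrid, and is shown in capitals.
PC-3p-295037_12: ggtggacTTGCTGGGGAGGGA
PC-3p-39141_92: cggatTTGCTGGGGAGGGAa
The 19 nt candidates of the PP2C gene and of the topoisomerase II and N-acyltransferase genes share 10 bases, also in capitals.
PC-5p-176409_20: taaTTTCGTCGGCcaagat
PC-3p-269545_14: gaagcatttTTTCGTCGGC
This run starts at base 4 of PC-5p-176409_20 and at base 10 of PC-3p-269545_14, and their seeds differ. Names that share most of their bases count separately in the list of 33, although they need not be separate small RNAs.

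The precursor was at hand for 19 of the 33 candidates, from the hairpins that the study lists on the Fragaria vesca genome 1.0. In 9 of them the candidate was found base for base, and in 10 it differed from the genome at 1 base, in 2 cases the last base of the candidate. The folds computed for the hairpins of 106 to 258 bases had a minimum free energy between -133.4 and -42.9 kcal/mol, with a median of -74.4, and 14 to 22 bases of the candidate were paired. The hairpins of the candidates with the closest category 0 match and with the most member genes are printed, with the candidate in capitals. They lie within scf0513168:261466-261726 on the minus strand and scf0513061:421306-421566 on the plus strand. Capitals mark only candidates with member genes, and the other arm of a hairpin can hold a more abundant candidate. By the reads that the paper gives, this holds for the hairpins of PC-3p-1812_1740, PC-3p-387861_10 and PC-5p-15285_237.
PC-5p-931_3343: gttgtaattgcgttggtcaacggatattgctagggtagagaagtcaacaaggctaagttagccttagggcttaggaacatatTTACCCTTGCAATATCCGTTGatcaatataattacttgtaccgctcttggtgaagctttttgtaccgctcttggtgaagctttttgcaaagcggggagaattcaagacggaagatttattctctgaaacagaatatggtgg
PC-3p-1812_1740: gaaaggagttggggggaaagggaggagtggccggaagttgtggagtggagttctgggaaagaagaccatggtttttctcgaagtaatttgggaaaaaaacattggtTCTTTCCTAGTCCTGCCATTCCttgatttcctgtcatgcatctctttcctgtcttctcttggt
Another hairpin, within scf0512967:21910-22170 on the plus strand, gave 2 candidates with member genes, 1 from each arm, and both are in capitals. The bases are those of the genome, from which the 3′ arm candidate differs at its base 11.
PC-5p-26900_134 and PC-3p-1366_2253: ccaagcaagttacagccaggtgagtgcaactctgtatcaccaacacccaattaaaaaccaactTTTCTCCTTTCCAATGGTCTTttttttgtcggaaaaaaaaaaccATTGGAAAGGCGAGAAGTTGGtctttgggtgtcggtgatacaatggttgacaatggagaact
The 5′ arm candidate was paired as a listed target with gene10392-v1.0-hybrid, with the most degradome reads, and the 3′ arm candidate with the fructose-2,6-bisphosphatase gene. Raw reads of the 5′ arm were 138 in the 0 h library and 86 in the 24 h library, and those of the 3′ arm were 1989 and 1516. Both had fewer normalized reads at 24 h, by a fold of 0.579 (0.434 to 0.759) for the 5′ arm and 0.704 (0.658 to 0.753) for the 3′ arm.

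Most of the 33 candidates were 21 nt long, 22 of 33 (66.7%, 48.2 to 82.0%), while 24 nt was the length of 5 (15.2%, 5.11 to 31.9%). Over all 1225 candidates the lengths were the other way round, with 168 of 21 nt (13.7%) and 862 of 24 nt (70.4%). Known miRNAs were 21 nt long in 66 of 85 names (77.6%). In plants, 21 nt is the usual length of miRNAs and 24 nt that of small RNAs that direct DNA methylation. The first base was T in 13 of the 33 (39.4%, 22.9 to 57.9%), against 28.8% of all candidates and 50.6% of known names.

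**Figure D3:**
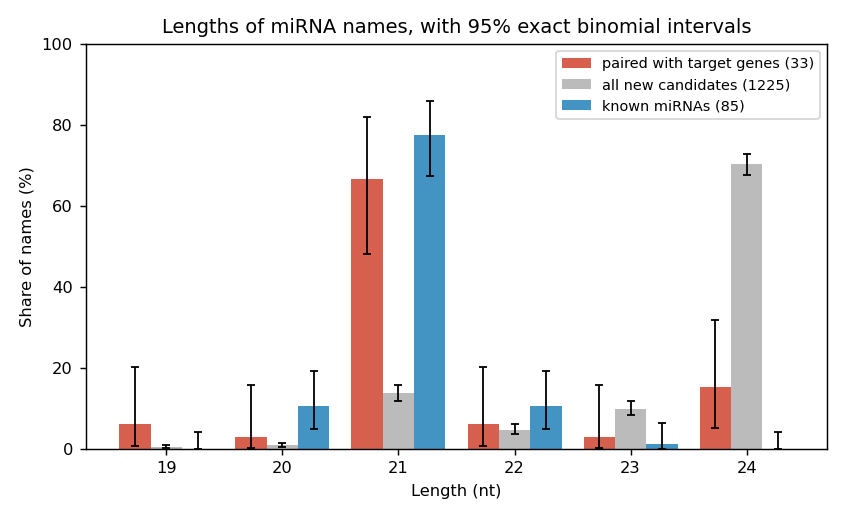
Share of names (%) by length in nt for the 33 candidates paired with target genes, all 1225 candidates and the 85 known miRNAs, with bars from 0 and exact 95% binomial intervals. At 21 nt the shares are 66.7%, 13.7% and 77.6%, and at 24 nt they are 15.2%, 70.4% and 0%.

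The candidates spanned a wide range of abundance, from 11 to 86698 raw reads over both libraries, with a median of 39.0, close to the 48.0 of all candidates. Known miRNAs had a median of 214. At least 100 raw reads were reached by 11 of the 33 (33.3%, 18 to 51.8%), an interval that includes the 24.7% of all candidates. With each candidate counted once in a category, its median raw reads were 1685 over the 4 candidates of category 0, 51.0 over the 9 of category 2 and 42.0 over the 20 of category 4. Counted once per gene, so that a candidate with several genes enters several times, the medians were 2155, 254 and 59.0. The ranges overlap, since category 0 spans 11 to 86698 and category 4 spans 11 to 3505.

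**Figure D4:**
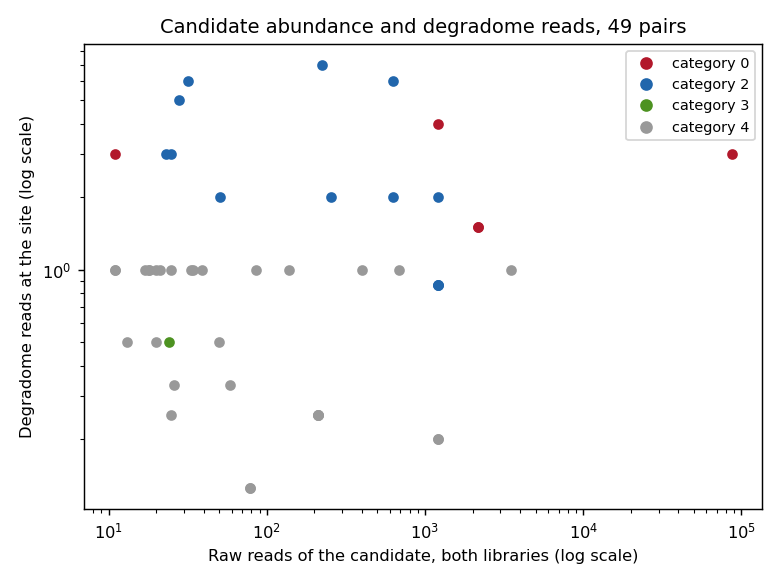
Raw reads of the candidate over both libraries against degradome reads at the site (both log axes) for the 49 pairs, coloured by category. Sites with 5 to 7 reads belong to candidates with under 100 raw reads as well as with over 100, and the most abundant candidate, with 86698 reads, has a site of 3 reads.

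The question of the storage libraries is whether the candidates of these genes differ between 0 h and 24 h. The minimum of 10 raw reads in either library was reached by 30 of the 33. In 4 of the 30 the log2 fold of normalized reads (24 h over 0 h) was above 1, against 6.25% of all 1248 miRNAs with enough reads, and in 0 it was below -1, against 3.69%. The share of 4 in 30 is 13.3% (3.76 to 30.7%), an interval that includes the background. In PC-3p-238320_15, of the unannotated gene24343-v1.0-hybrid, there was 1 raw read at 0 h and there were 12 at 24 h, a fold of 10 (1.64 to 473.6). In PC-3p-387861_10, of the unannotated genes gene31413-v1.0-hybrid and gene18236-v1.0-hybrid, there were 4 and 14 raw reads, a fold of 3 (1.01 to 13.5). In PC-3p-88384_40, of the tetratricopeptide repeat-like gene, there were 7 and 19, a fold of 2.67 (1.01 to 7.05). These 3 were counted in few reads, and only PC-5p-931_3343 among the 4 had over 100 reads. For none of the 30 did the interval lie wholly beyond 2-fold, beside 0.721% of all miRNAs with enough reads.

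**Figure D5:**
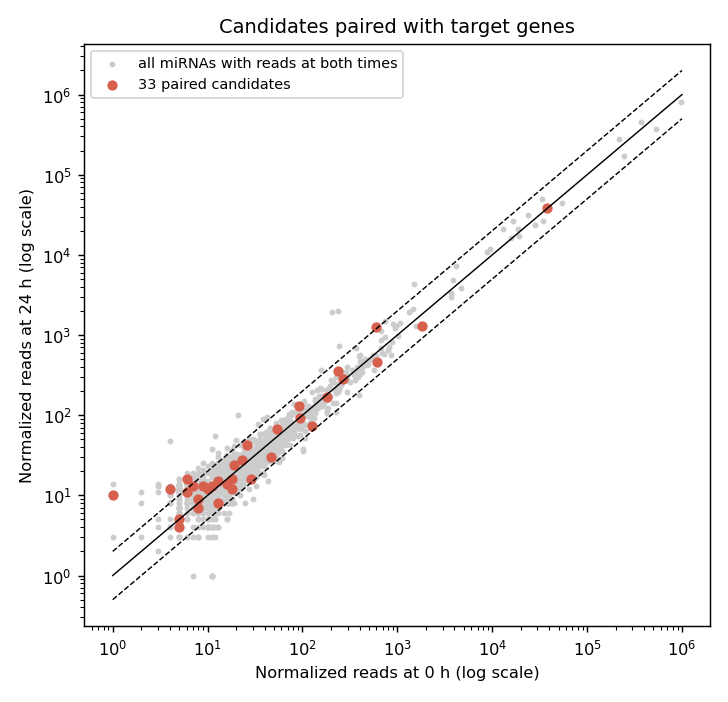
Normalized reads at 0 h and at 24 h (log axes) of the 33 candidates paired with target genes, in red, and of all miRNAs with reads at both times, in grey. The solid line marks equal values and the dashed lines a 2-fold difference, and 4 candidates with enough reads lie above the upper dashed line and 0 below the lower one.

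Over the 30 candidates the median log2 fold was 0.22, between -0.86 and 3.32, and the median of all miRNAs with enough reads was 0.00. The interval of the median, from the order of the 30 values, was -0.12 to 0.49 and includes 0, and among candidates that reached 50 raw reads the median was 0.01. The 24 h value was above the 0 h value in 19 (63.3%, 43.9 to 80.1%) and below it in 11 (36.7%), beside 47.3% and 48.4% of all miRNAs with enough reads. The interval of the fold lay above 1 in 7 candidates (23.3%, 9.93 to 42.3%) and below 1 in 5 (16.7%, 5.64 to 34.7%), beside 9.46% and 7.21% of all miRNAs with enough reads, and included 1 in 18. In known miRNAs, which had more reads, it lay above 1 in 35.7% and below 1 in 21.4%. The 7 include PC-5p-15285_237, of the unannotated gene01896-v1.0-hybrid, with 261 and 424 raw reads and a fold of 1.5 (1.28 to 1.76), and PC-5p-67794_53, of the alpha/beta-hydrolase gene, with 101 and 153 and a fold of 1.40 (1.08 to 1.82). The lowest fold was that of PC-5p-39307_92, of the ankyrin repeat gene, with 32 and 19 raw reads and a fold of 0.552 (0.294 to 0.997). The candidate of the PP2C gene had 13 and 15 raw reads, a fold of 1.18 (0.473 to 2.43). The most abundant candidate, PC-3p-24_126989, had a fold of 1.01 (0.994 to 1.02). The degradome was sequenced once from mixed fruit, so no change of cleavage between the storage times can be read from it, and the level of the transcripts was not measured.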

How the data were processed

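Per the labels and the study's methods, the authors obtained raw counts per miRNA from ACGT101-miR 4.2, and the normalized scores, as deposited, are those reads scaled with 1 factor per library (about 0.917 at 0 h and 0.846 at 24 h) and rounded. The authors called degradome targets with CleaveLand 3.0 and ACGT301-DGE 1.0 on Fragaria vesca gene models 1.0, giving an alignment score, a category and a p-value. The deposited signal is the number of degradome reads at the site, divided over places for repeated tags. Depth of the degradome was not used.

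The 1431 entries were reduced to 1310 names. A gene counted by its pair of lowest category, then lowest P, then most reads. Folds used normalized reads for names that reached 10 raw reads in either library, with a call past log2 1 or -1 and a floor of 3 reads for a count of 0. Intervals at the 95% level are Poisson for counts, Clopper-Pearson for shares and conditional binomial for folds. Whole degradome values were taken as counts, although reads divided over places can also give a whole value. Category 0, 1 and 3 genes, genes with at least 2 reads, annotated genes, genes with several candidates, likely copies and genes of candidates past 2-fold were named. Functional lists were set by words of the annotation. Members and lists were chosen with earlier results of these data known. Hairpins come from the study's supplementary list, which was at hand in part, and were folded with RNAfold 2.7.2. The candidate closest to a known miRNA, the shared runs, gene01896-v1.0-hybrid, gene28565-v1.0-hybrid, gene22986-v1.0-hybrid and gene00710-v1.0-hybrid were picked out once their values had been seen. The fold call was tested on simulated data. Python 3.11.15 with scipy 1.17.1 and, for scaling factors, edgeR 4.0.16 and DESeq2 1.42.0 in R 4.3.3 were used. Target site sequences are not shown, since a gene set of this build was not used here. The values of 1 annotated gene are not reported here.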

Additional observations from a re-analysis of the deposited data

How the results depend on the processing

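No paired analysis was possible because each storage time has 1 library. With a minimum of 50 raw reads in either library, 1 candidate of the target genes in place of 4 was higher at 24 h, and with the counting interval wholly beyond 2-fold, 0 were. The count lower at 24 h was 0 under every alternative, and the median log2 fold was between 0.01, with the minimum of 50 raw reads, and 0.32. Its interval of -0.12 to 0.49 over 30 candidates includes 0. Raw reads and scaling by the total of listed miRNAs each set the 24 h library 0.12 higher on the log2 scale than the authors' factors do, and single folds of few reads moved by other amounts, as normalized reads are rounded. The 46 genes fell to 18 in categories 0 to 2 and to 13 with a score of at most 3. Category 0 genes fell from 5 to 3 with at least 2 degradome reads, because the 2 genes of PC-5p-931_3343 had 1.5 reads each. Genes with P under 0.05 fell from 5 to 2 at 0.01 and were 5 after Benjamini-Hochberg adjustment over the 152 listed pairs. The list holds only pairs that the authors kept, so this adjustment does not cover all pairs that were tried. Genes with more than 1 read were 15, and 29 had at least 1. The other alternatives moved no count by over 1.5 times. Without replicates, depth limits every fold of candidates with few reads.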
